A study of Mus musculus with 4 samples.

Results

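The genes described here make and modify fatty acids inside the cell: the carboxylases Acaca and Acacb, the synthase Fasn, the elongases Elovl5 and Elovl6, the desaturases Scd1, Scd2, Fads1 and Fads2, and the transcription factor gene Srebf1. These 10 genes were taken by name and by no cut on their values, with earlier results of these data known. They are among 14409 named genes that could be compared between small intestine of mice lacking the Cyp3a cluster (Cyp3a-/-) and of wild-type mice. Each genotype had 2 arrays, 1-colour Agilent arrays of Cy3-labelled total RNA, and per the series' design text the experiment was done 2 times, on other animals each time. The labels do not say that a replicate number stands for one of these experiments. Strain, sex, age, diet, time of sampling, the stretch of intestine and whether an array held RNA of 1 animal are not given in the sources used here. The deleted cluster is a block of cytochrome P450 genes whose enzymes oxidise drugs and steroids.

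Fatty acid synthesis starts from cytosolic acetyl-CoA, which acetyl-CoA carboxylase turns into malonyl-CoA and fatty acid synthase builds into palmitate. Elovl6 lengthens palmitate to stearate, and the Scd enzymes place a double bond into such saturated chains to give palmitoleate and oleate. Fads2, Elovl5 and Fads1 work in turn on essential fatty acids from the diet to make long polyunsaturated chains such as arachidonate. Srebf1 encodes SREBP-1, the factor that switches on most of these genes once it is cut free from its membrane anchor. In the intestine the pathway runs beside the uptake of dietary fat by enterocytes, and it is also strong in liver and fat tissue.

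Promoter windows were set side by side because 2 genes that were low on the first Cyp3a-/- array, Fasn and Fads2, and 2 elongases, of which Elovl6 was high there and Elovl5 was not, are described below. Each is the 250 bases before the annotated start site, read 5′ to 3′ along the gene from RefSeq, build GRCm38.p6. Capitals mark CCAAT, the box bound by NF-Y, and CACGTG, the E-box; these and the other motif below were searched on both strands. The windows lie at chr11:120824548-120824797, minus strand (Fasn), chr19:10101504-10101753, minus strand (Fads2), chr9:77917115-77917364, plus strand (Elovl5) and chr3:129532136-129532385, plus strand (Elovl6).
Fasn: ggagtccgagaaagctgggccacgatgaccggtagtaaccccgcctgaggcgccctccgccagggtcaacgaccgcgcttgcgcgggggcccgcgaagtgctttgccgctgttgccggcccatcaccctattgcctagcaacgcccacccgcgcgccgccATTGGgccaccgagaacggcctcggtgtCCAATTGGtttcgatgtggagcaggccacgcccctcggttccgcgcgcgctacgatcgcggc
Fads2: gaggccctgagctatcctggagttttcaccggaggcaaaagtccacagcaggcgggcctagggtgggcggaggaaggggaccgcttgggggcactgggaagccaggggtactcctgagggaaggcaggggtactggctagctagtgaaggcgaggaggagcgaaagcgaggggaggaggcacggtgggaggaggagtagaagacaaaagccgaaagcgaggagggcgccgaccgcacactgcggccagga
Elovl5: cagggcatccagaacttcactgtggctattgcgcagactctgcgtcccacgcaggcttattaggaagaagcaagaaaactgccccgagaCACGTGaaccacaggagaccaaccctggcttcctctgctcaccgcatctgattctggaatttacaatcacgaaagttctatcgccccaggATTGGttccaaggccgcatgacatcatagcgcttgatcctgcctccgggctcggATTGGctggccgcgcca
Elovl6: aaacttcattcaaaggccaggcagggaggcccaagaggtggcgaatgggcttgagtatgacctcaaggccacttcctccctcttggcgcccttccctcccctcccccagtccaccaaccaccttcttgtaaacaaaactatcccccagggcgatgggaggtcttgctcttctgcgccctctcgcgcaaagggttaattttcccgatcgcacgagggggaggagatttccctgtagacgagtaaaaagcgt
The Fasn window held CCAAT at 3 places, which began 90, 62 and 59 bases before the start site, and the last pair overlapped. The Elovl5 window held CACGTG 161 bases before the start site and CCAAT 71 and 17 bases before it. The Fads2 and Elovl6 windows held neither. Acacb was also low on the first Cyp3a-/- array. Its window, not printed here, held CCAAT 87 bases before the start site and no CACGTG. Windows were found for 7 of the 10 genes, 9 windows in all, since Srebf1 has several start sites. CCAAT was in 5 of these 9 windows and in 33.8% of all 32851 promoter windows of this length, and CACGTG was in 1 of 9 and in 6.02% of all. The letters TCACNCCAC, a form of the sterol regulatory element, were in 0 of 9 and in 1.05% of all. A match is a description of the letters in this window only.

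The labels were checked first on Cyp3a11, a gene of the deleted cluster. Its level was -5.77 and -4.52 on Cyp3a-/- arrays 1 and 2, not well above background, against 5.05 and 5.78 on wild-type arrays 1 and 2. A level is the log2 signal of a probe minus the 75th percentile of its array, so levels of different probes are not compared as transcript amounts. Summed signals of marker lists add up different probes, so they and shares of them describe signal only. That percentile stood at 322 and 175 scanner units in Cyp3a-/- 1 and 2, against 226 and 356 in wild type 1 and 2, and between 55.2% and 64.4% of 39429 probes were well above background. Precision is limited by having 2 arrays a genotype. Cyp3a-/- 1 stood apart: it correlated less with Cyp3a-/- 2 across genes (0.948) than with wild type 1 and 2 (0.966 and 0.962), while Cyp3a-/- 2 correlated with them at 0.981 and 0.980 and the wild-type arrays with each other at 0.979.

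No gene of fatty acid synthesis differed between the genotypes beyond the spread between arrays. All 10 had a matched probe, and on the probe used all 10 were well above background on all 4 arrays. By limma's test with Benjamini-Hochberg adjustment over all 14409 genes, 0 of the 10 passed the threshold of 0.05 in either direction, and 0 had an unadjusted p under 0.05. Over all genes 0% were called higher and 0.0416% lower, so a count of 0 among 10 genes lies near the background. The genotypes overlapped in all 10 genes, where 14.7% of all tested genes did not overlap. Differences are log2 levels, Cyp3a-/- minus wild type: 5 of the 10 were positive and 5 negative, with a median of -0.04 beside 0.04 over all tested genes. Limma's adjusted p was 1.00 for each of the 10. That shows no likeness of the genotypes, since the 95% intervals of the differences were wide, from -0.58 to 0.78 for Fads1 and from -2.23 to 0.95 for Fads2.

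**Figure D1:**
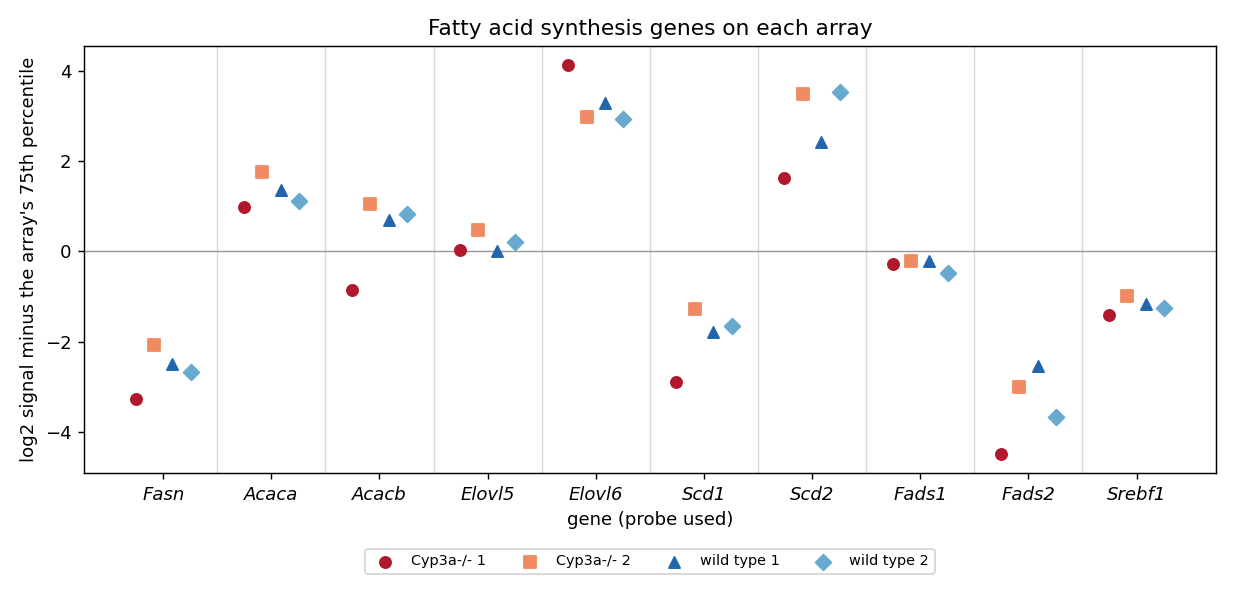
Level of each of the 10 genes on each array, as log2 signal minus the array's 75th percentile (vertical axis), by gene (horizontal axis); each point is 1 array, and the horizontal line marks the 75th percentile. Cyp3a-/- 1 is the lowest point for 7 genes and the highest for Elovl6, and the genotypes overlap for every gene.

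The enzymes that commit carbon to fatty acids showed the same order of the Cyp3a-/- arrays, the first low and the second high. Fasn, fatty acid synthase, had levels of -3.27 and -2.08 in Cyp3a-/- 1 and 2, against -2.49 and -2.67 in wild type 1 and 2. The wild-type arrays lay close together and between the Cyp3a-/- arrays. Mean levels were -2.68 ± 0.84 in Cyp3a-/- and -2.58 ± 0.12 in wild type (SD, n = 2 each), a log2 difference of -0.10 (SE 0.48). With normexp background correction, another way to treat dim signal, the difference of Fasn was 0.089.

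Acacb, the carboxylase of the outer mitochondrial membrane whose malonyl-CoA restrains fatty acid oxidation, had levels of -0.87 and 1.05 in Cyp3a-/- 1 and 2, against 0.68 and 0.82 in wild type 1 and 2. Only Cyp3a-/- 1 was low, 3.07-fold under the wild-type mean, while Cyp3a-/- 2 was the highest array. The log2 difference was -0.66 (SE 0.61), the largest in size among the 10. Without Cyp3a-/- 2 the log2 difference of Acacb was -1.62, and without Cyp3a-/- 1 it was 0.30. In each of these fits the lone Cyp3a-/- array is assumed to vary like the 2 wild-type arrays.

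Acaca, the cytosolic carboxylase that supplies the synthase, had levels of 0.98 and 1.76 in Cyp3a-/- 1 and 2, against 1.36 and 1.12 in wild type 1 and 2. The 4 arrays stood in the same order as for Fasn. The log2 difference was 0.13 (SE 0.34).

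Both carboxylases had further probes. A second Acacb probe had levels of -4.67 and -2.85 in Cyp3a-/- 1 and 2, against -3.39 and -3.01 in wild type 1 and 2, and was not well above background in Cyp3a-/- 1. It gave the same order of the 4 arrays as the probe used, and Cyp3a-/- 1 lay below Cyp3a-/- 2 by a log2 difference of -1.83, beside -1.92 on the probe used. A second Acaca probe had levels of -4.08 and -3.36 in Cyp3a-/- 1 and 2, against -4.13 and -4.16 in wild type 1 and 2. On that probe both Cyp3a-/- arrays lay above both wild-type arrays, Cyp3a-/- 1 barely so, and limma's adjusted p over 24024 probes was 1.00 (log2 difference 0.42, SE 0.45). The 2 Acaca probes thus disagreed on whether the genotypes overlap. A further Acaca probe was well above background on 1 array only.

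The elongases went different ways on Cyp3a-/- 1. Elovl6, which turns palmitate into stearate, had levels of 4.12 and 2.97 in Cyp3a-/- 1 and 2, against 3.29 and 2.94 in wild type 1 and 2. It was the 1 gene of the 10 for which Cyp3a-/- 1 was the highest array, 2.01-fold over the wild-type mean, while Cyp3a-/- 2 lay with the wild-type arrays. Mean levels were 3.54 ± 0.82 in Cyp3a-/- and 3.11 ± 0.25 in wild type (SD, n = 2 each), a log2 difference of 0.43 (SE 0.43). Elovl5, an elongase of polyunsaturated chains, had levels of 0.03 and 0.47 in Cyp3a-/- 1 and 2, against 0.0021 and 0.20 in wild type 1 and 2. Its 4 arrays lay within 0.46 of each other, and its log2 difference was 0.14 (SE 0.30).

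The stearoyl-CoA desaturases were lowest on Cyp3a-/- 1. Scd1, the main form of liver and fat, had levels of -2.91 and -1.29 in Cyp3a-/- 1 and 2, against -1.79 and -1.65 in wild type 1 and 2. The wild-type arrays again lay between the Cyp3a-/- arrays, with a log2 difference of -0.38 (SE 0.56), and -0.095 with normexp background correction. Scd2, a form best known from brain, had levels of 1.63 and 3.49 in Cyp3a-/- 1 and 2, against 2.42 and 3.54 in wild type 1 and 2. Unlike Scd1, it also differed between the wild-type arrays, by 2.17-fold. Its log2 difference was -0.42 (SE 0.67). These genes are close in sequence, and binding of the transcript of one to the probe of another was not checked.

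Of the desaturases of polyunsaturated chains, Fads1 varied least of the 10 between the Cyp3a-/- arrays. Fads1, which acts last and yields arachidonate, had levels of -0.29 and -0.22 in Cyp3a-/- 1 and 2, against -0.22 and -0.49 in wild type 1 and 2, a log2 difference of 0.10 (SE 0.28). Fads2, which acts first, had levels of -4.48 and -3.01 in Cyp3a-/- 1 and 2, against -2.54 and -3.67 in wild type 1 and 2. It was low in Cyp3a-/- 1 and high in wild type 1, and its signal was dim on all arrays, from 14.4 scanner units in Cyp3a-/- 1 to 38.8 in wild type 1. The log2 difference was -0.64 (SE 0.65), and -0.012 with normexp background correction.

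Srebf1, the regulator, varied over the 4 arrays less than the others did except Fads1. Its levels were -1.40 and -0.99 in Cyp3a-/- 1 and 2, against -1.16 and -1.26 in wild type 1 and 2. The array order was again that of Fasn, over a range of 0.42, and the log2 difference was 0.02 (SE 0.31, 95% interval -0.74 to 0.77). The probe reads Srebf1 transcripts and says nothing of how much SREBP-1 protein is cut free.

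**Figure D2:**
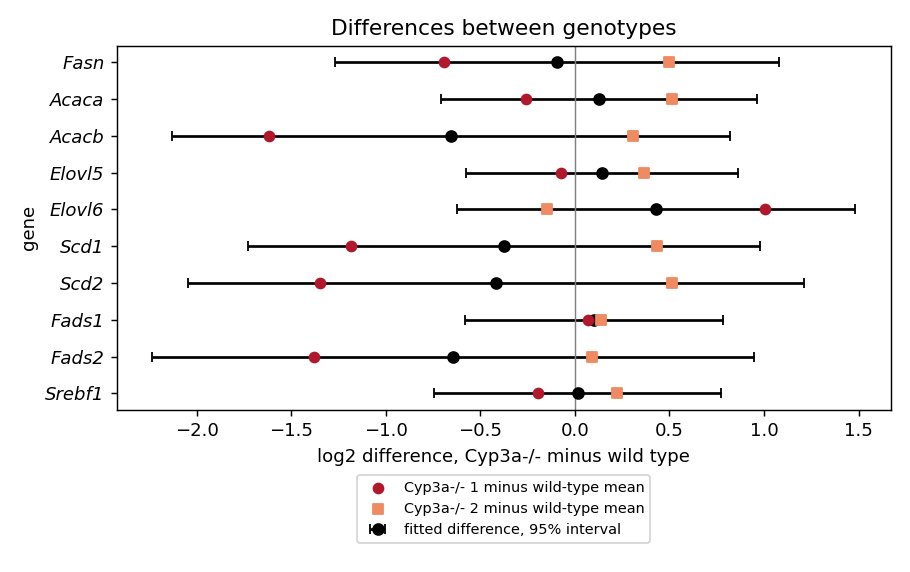
Fitted log2 difference of each gene, Cyp3a-/- minus wild type, with its 95% interval from limma's fit (black; n = 2 arrays a genotype), beside each Cyp3a-/- array minus the wild-type mean (coloured). All 10 intervals include 0, and the 2 coloured points lie on opposite sides of 0 for 9 of the 10 genes, Fads1 being the exception.

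Across the 10 genes the arrays of the Cyp3a-/- genotype were further apart than those of the wild type. The gap between Cyp3a-/- 1 and 2 exceeded that between wild type 1 and 2 in 9 of 10 genes, with a median size of 1.17 against 0.22 (log2), beside 0.45 against 0.30 over all tested genes. Fasn, Acacb, Scd1, Scd2, Elovl6 and Fads2 differed by at least 1 between the Cyp3a-/- arrays, 6 of 10, where 19.6% of all tested genes did. Scd2 and Fads2 differed by that much between the wild-type arrays, 2 of 10, where 5.38% of all tested genes did. Cyp3a-/- 1 was the lowest array in 7 of 10 genes (32.6% over all genes), and Cyp3a-/- 2 the highest in 6 (28.7% over all genes). In Fasn, Acacb, Scd1, Scd2 and Fads2, 5 of 10, Cyp3a-/- 1 lay at least 0.5 below each of the other arrays, where 11.9% of all tested genes did. The median of the 10 genes relative to the wild-type mean was -0.47 in Cyp3a-/- 1 and 0.33 in Cyp3a-/- 2, against 0.07 and -0.07 in wild type 1 and 2. Over all tested genes these medians were 0.03 and 0.04, against 0.02 and -0.02. Without Cyp3a-/- 1 the log2 differences of Fasn (0.50), Acacb (0.30), Scd1 (0.43), Scd2 (0.51) and Fads2 (0.09) were positive and that of Elovl6 was -0.15, each the opposite sign to that with all arrays.

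Cyp3a-/- 1 and wild type 2 shared a slide and its scan, and each of the other arrays was alone on a slide. Within the shared slide the median difference of the 10 genes was -0.39, beside 0.08 over all tested genes. Scd2 was 3.75-fold, Acacb 3.21-fold and Scd1 2.39-fold lower in Cyp3a-/- 1 than in wild type 2. Elovl6 was 2.27-fold higher there. A single pair of arrays has no replicate and gives no test.

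Other genes of the pathway were taken by role: 59 genes in 6 groups, of which 53 were tested. Of these 53, 0 passed in either direction and 0 had an unadjusted p under 0.05 by limma's test. Both Cyp3a-/- arrays lay above both wild-type arrays in 4 (8.65% over all genes) and below them in 2 (6.09% over all genes), and the median difference was 0.11. The median size of the gap between the Cyp3a-/- arrays was 0.42 over these 53 genes. By group it was 0.76 in precursor supply, 0.75 in desaturation and 0.74 in fatty acid use, against 0.27 to 0.34 in the other groups.

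In the supply of precursors, 8 of 8 genes were tested. Acly, which splits citrate into cytosolic acetyl-CoA, had levels of 2.59 and 3.54 in Cyp3a-/- 1 and 2, against 3.19 and 3.51 in wild type 1 and 2, so it was lowest on Cyp3a-/- 1, as Fasn was. The NADPH-forming enzymes went the other way on that array. Me1, malic enzyme, had levels of 4.82 and 3.98 in Cyp3a-/- 1 and 2, against 3.79 and 4.30 in wild type 1 and 2. G6pdx, Pgd and Idh1, which also form NADPH, were highest on Cyp3a-/- 1 too, and Cyp3a-/- 1 was the highest array in 6 of these 8 genes (34.1% over all genes). The 8 differences ran from -0.28 for Acly to 0.36 for G6pdx, and each 95% interval included 0.

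The elongation cycle and the other desaturases with their electron donors held 16 tested genes. Elovl7, another elongase, had levels of 2.18 and 2.06 in Cyp3a-/- 1 and 2, against 1.73 and 1.84 in wild type 1 and 2. Hacd3, a dehydratase of the cycle, had levels of 4.12 and 4.19, against 4.10 and 3.83 in the same order. In these 2 of the 16 genes (8.65% over all genes) both Cyp3a-/- arrays lay above both wild-type arrays, with log2 differences of 0.33 (SE 0.26) and 0.19 (SE 0.28). Cyb5a, the cytochrome that hands electrons to the desaturases, had levels of 6.88 and 5.12 in Cyp3a-/- 1 and 2, against 5.12 and 5.06 in wild type 1 and 2. It was high in Cyp3a-/- 1 alone, where Scd1, Scd2 and Fads2 were low. Elovl2, Elovl3, Elovl4 and Scd4 were well above background on fewer than 2 arrays and were not tested.

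Among the regulators, 14 of 14 were tested. Insig1, which holds SREBPs in the endoplasmic reticulum and is itself a target of theirs, had levels of 0.28 and 0.60 in Cyp3a-/- 1 and 2, against 0.68 and 0.80 in wild type 1 and 2 (log2 difference -0.30, SE 0.28). Srebf2, the regulator of cholesterol synthesis, had levels of -0.17 and -0.0015 in Cyp3a-/- 1 and 2, against -0.39 and -0.66 in wild type 1 and 2 (log2 difference 0.44, SE 0.28). The genotypes did not overlap in these 2 genes, nor in Mid1ip1, a partner of acetyl-CoA carboxylase (log2 difference 0.34, SE 0.28), and none of the 3 passed limma's test. These were 3 of 14 regulators, where 14.7% of all tested genes did not overlap, so the count lies near the background. Thrsp, a lipogenic gene of liver and fat, had levels of -3.54 and -1.97 in Cyp3a-/- 1 and 2, against -1.45 and -2.60 in wild type 1 and 2, the same array order as Fads2. Mlxipl, the carbohydrate-sensing factor ChREBP, had a log2 difference of 0.26 (SE 0.39), and Nr1h3, the oxysterol receptor LXRα that switches on Srebf1, of 0.15 (SE 0.31).

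Among genes that activate fatty acids and build triglyceride, Cyp3a-/- 1 was the highest array in 6 of 9 tested (34.1% over all genes). Mogat2, the acyltransferase by which enterocytes rebuild triglyceride, had levels of 6.77 and 5.52 in Cyp3a-/- 1 and 2, against 6.19 and 5.64 in wild type 1 and 2. In Acsl3 and Acsl4, which activate long chains, wild type 2 was the highest array (-0.65 and 0.46), with Cyp3a-/- 1 at -1.26 and -0.21. Lpin1, a phosphatidate phosphatase, was the 1 gene of the 9 for which Cyp3a-/- 1 was the lowest array, with levels of -4.79 and -3.55 against -3.13 and -3.54 in the same order, so that both Cyp3a-/- arrays lay below both wild-type arrays, Cyp3a-/- 2 barely so. It was well above background on 3 arrays (log2 difference -0.84, SE 0.55). The genotypes overlapped in the rest of the 9 genes, where 14.7% of all tested genes did not overlap. The 6 genes of mitochondrial fatty acid synthesis had differences from 0.07 to 0.21, and Gpam and Pnpla3 were not tested.

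**Figure D3:**
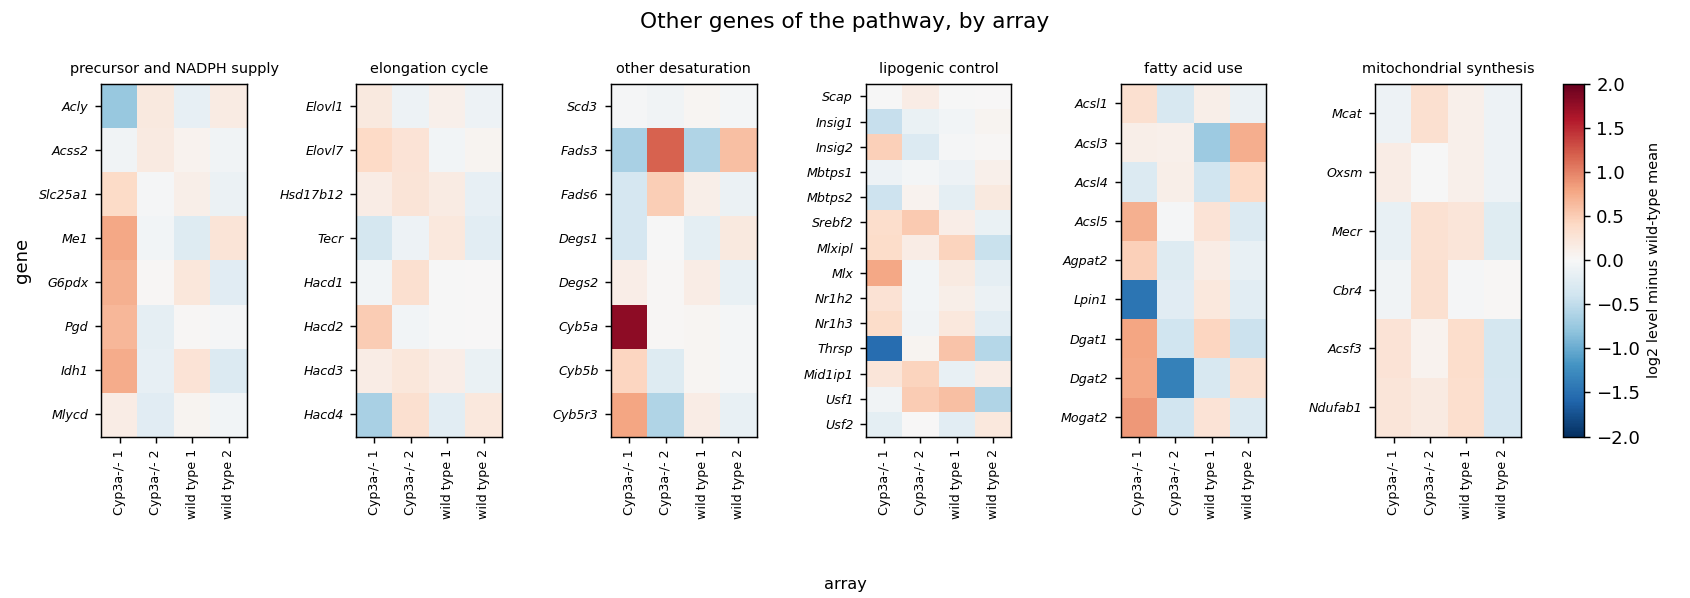
Level of each of the 53 other tested pathway genes (rows) on each array (columns), as the log2 level minus the gene's wild-type mean, with red for higher and blue for lower levels. Cyb5a is 1.79 above the wild-type mean in Cyp3a-/- 1, and Thrsp there lies at -1.52 from it.

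Markers of the cell types a piece of intestine can hold moved with the arrays too. Absorptive enterocyte markers were all well above background on all 4 arrays, 10 of 10. Their median relative to the wild-type mean was 0.87 and -0.26 in Cyp3a-/- 1 and 2, against 0.29 and -0.29 in wild type 1 and 2. Cyp3a-/- 1 was the highest array in 8 of 10 of them. It was the highest in 1 of the 10 fatty acid synthesis genes, Elovl6. Among the other pathway genes it was the highest in 23 of 53 (34.1% over all genes), Cyb5a and Mogat2 included. Smooth muscle markers had medians of -0.91 and 0.61, against -0.10 and 0.10 in the same order. Cyp3a-/- 1 was lowest in 10 of 10 and Cyp3a-/- 2 highest in 9 of 10. These arrays also had those places for Fasn, Acaca, Acacb, Scd1 and Srebf1, but not for Scd2, Elovl5, Elovl6, Fads1 or Fads2. Their summed signal, in multiples of the array's 75th percentile, was 112 and 332 in Cyp3a-/- 1 and 2, against 195 and 222 in wild type 1 and 2. That of enterocyte markers was 1359 and 775, against 1078 and 711. Crypt markers had medians of -0.88 and 0.13, against -0.14 and 0.14, with summed signals of 28.4 and 65.5, against 47.8 and 73.8. They were mixed: Cyp3a-/- 1 was the lowest array in 5 of 9 and the highest in 2, Lgr5 and Ephb2. In bulk tissue, fewer cells of a type and less RNA per cell cannot be told apart. The part of these marker levels in the values of the 10 genes was not tested.

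Fat and liver make fatty acids at high rates, so their markers stand beside these genes. Of 10 adipocyte markers, 6 and 8 were well above background in Cyp3a-/- 1 and 2, against 7 and 8 in wild type 1 and 2, and the defining markers Lep and Plin1 were above it on no array. Adipoq, the fat hormone adiponectin, had levels of -6.47 and -2.24 in Cyp3a-/- 1 and 2, against -4.80 and -3.83 in wild type 1 and 2, but it was well above background on 2 arrays only and not on Cyp3a-/- 1, so its place there is not ranked. The adipocyte list had medians of -0.60 and 0.65, against 0.03 and -0.03, and summed signals of 18.3 and 13.2, against 14.3 and 16.5. Cidec, a lipid droplet gene, and Lipe, hormone-sensitive lipase, were both highest in Cyp3a-/- 1 and lowest in Cyp3a-/- 2. Cidec had levels of 3.95 and 2.47, against 3.26 and 3.60, and gave 84.4% and 42.1% of the summed signal in Cyp3a-/- 1 and 2, against 67.1% and 73.6% in wild type 1 and 2. Without Cidec the sums were 2.86 and 7.63, against 4.70 and 4.35, in the order of the medians for the Cyp3a-/- arrays. Of 9 hepatocyte markers with a probe, 3 and 6 were well above background in Cyp3a-/- 1 and 2, against 9 and 4 in wild type 1 and 2. Alb, albumin, had levels of -5.56 and -2.60, against 1.33 and -5.50, but was well above background on 2 arrays only. It was highest in wild type 1. That array was the highest in 2 of the 10 fatty acid synthesis genes, Fads1 and Fads2, where Cyp3a-/- 2 was the highest in 6. Wild type 1 was also the highest array in 3 of the 14 regulators, Thrsp among them. Hepatocyte summed signals were 2.12 and 4.72, against 8.75 and 3.78. The marker with the most signal was Cps1 in Cyp3a-/- 1, Ttr in Cyp3a-/- 2 and wild type 2, and Alb in wild type 1 only. Ttr had levels of -1.16 and 1.14, against 0.63 and 1.16, and Cps1 of 0.52 and 0.48, against 0.50 and -0.68. Of 9 pancreatic acinar markers with a probe, 3 were well above background on each array, with summed signals of 0.605 and 1.02, against 0.394 and 0.651. The part of fat, liver and pancreas transcripts in the 10 genes was not tested.

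**Figure D4:**
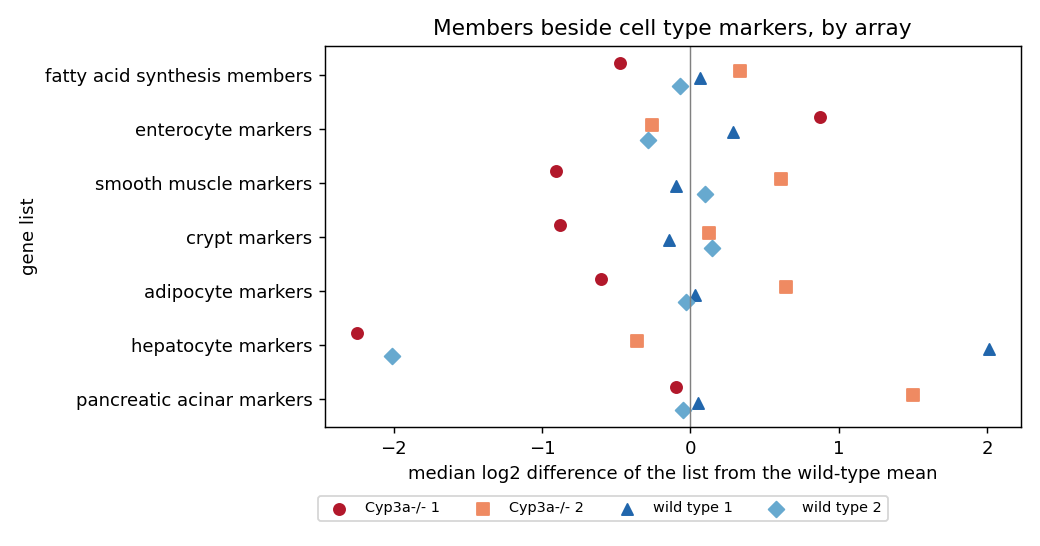
Median log2 difference from the wild-type mean (horizontal axis) of the 10 fatty acid synthesis genes and of 6 marker lists (rows), with 1 point per array; marker medians include genes not well above background. The median of the 10 genes was -0.47 in Cyp3a-/- 1 and 0.33 in Cyp3a-/- 2, and that of smooth muscle markers -0.91 and 0.61.

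Likeness of patterns was measured as the root mean square distance between levels centred on each gene's own mean over the 4 arrays. Among the 10 genes, Elovl5 and Srebf1 were the closest pair (0.12), and Scd1 lay 0.18 from Acacb and 0.24 from Fasn. Elovl6 and Fads2 lay apart from the rest: Elovl6 was 0.46 from its nearest, Fads1, and 1.26 from Scd2, and Fads2 was 0.45 from its nearest, Fasn, and 1.11 from Elovl6. Among all other tested genes the closest to Fasn were Gm9776 (0.017), Zfp27 (0.025) and Tmem107 (0.026), and the closest to Scd1 were Proser2 (0.016), Kcnq1ot1 (0.021) and Aldh1a2 (0.026). With 4 arrays this likeness is a description only.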

How the data were processed

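Total RNA of small intestine from Cyp3a-/- and wild-type mice was hybridised with Cy3 label, 1 sample per Agilent array, per the labels. Agilent Feature Extraction 11.5.1.1 was used, per the submitters' processing notes. The deposited intensity of each spot was corrected for background and spatial trend before deposit, per the file headers. The authors' processed table holds deposited log2 values that differed by at most 0.0034 from levels centred on each probe's median (correlation 1.00), so it keeps differences and no levels; its column medians were -0.11, 0.12, 0.05 and -0.10 for Cyp3a-/- 1 and 2 and wild type 1 and 2.

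Control and outlier spots were left out, and log2 signal minus the array's 75th percentile was used. Of 39429 probes, 28025 matched 1 symbol by accession (RefSeq, GRCm38.p6). Probes well above background on at least 2 arrays were kept, and the brightest per gene gave 14409 genes. A probe with several spots counted as above background if any spot was. Tests used limma 3.58.1 (R 4.3.3), lmFit followed by eBayes with trend, and were tried on simulated data. The genes and lists were chosen with earlier results of these data known: all 10 genes are named, other pathway genes by role, markers by count, and the 3 nearest patterns of Fasn and Scd1. P-values measure the spread between these arrays only. Replicate numbers were not used to pair the samples in the main fit, and the labels do not say whether they do. The alternatives were other scalings, corrections, filters, probe rules and variance models, the replicate number as a block, and each array left out in turn.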

Additional observations from a re-analysis of the deposited data

How the results depend on the processing

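Of 150 values of the 10 genes under alternatives, 1 passed the threshold, that of Acacb without Cyp3a-/- 2, and 16 had the sign turned. Normexp was run without 6 spots on Cyp3a-/- 2 that lay below their local background, a choice made after seeing the data, since with them the background estimate of that array failed; Fasn then had a difference of 0.089, and Scd1 (-0.095) and Fads2 (-0.012) came near 0. Under the other scalings the median of the 10 genes lay at 0.019 (array median), 0.011 (quantile) and 0.081 (normexp), beside 0.096, 0.014 and 0.068 over all genes. The values of the 10 genes within the shared slide are among the 150 but had no test, so they could not pass. There Acaca (-0.14), Elovl5 (-0.17) and Srebf1 (-0.15) turned. Leaving out each array in turn gave -0.69 to 0.50 for Fasn, -0.26 to 0.51 for Acaca, -1.62 to 0.30 for Acacb, -1.18 to 0.43 for Scd1, -1.35 to 0.51 for Scd2, -0.074 to 0.36 for Elovl5, -0.15 to 1.01 for Elovl6, -0.034 to 0.24 for Fads1, -1.38 to 0.090 for Fads2 and -0.19 to 0.22 for Srebf1, and a median of the 10 genes from -0.47 to 0.33; the cause was not tested. The number of the 10 that passed was then 0 to 1, and that of all genes 0 to 446, with 446 without Cyp3a-/- 2, 12 without Cyp3a-/- 1 and 0 without either wild-type array, beside 6 with all arrays. With a replicate block 32 genes passed, 0 of the 10 among them; deviations of same-numbered arrays correlated at 0.05. With probes above background on all 4 arrays 0 of 13057 genes passed. The Cyp3a11 probe used in the main fit, well above background on 2 arrays, was then left out, and the cause of the change was not tested. Slide could not be fitted: as a fixed term it leaves no residual degrees of freedom, and no slide correlation could be estimated from 1 shared slide. Dim signal limits Fads2, Fasn and Scd1 most.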
